A study of Homo sapiens with 12 samples.

Results

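The genes described here encode 8 enzymes that make serine and carry its one-carbon unit on folate, measured in Z138 cells in which AU-15330, a degrader of the SWI/SNF chromatin remodelling ATPases, was compared with its DMSO vehicle. They were picked by symbol from the 20318 entries of the deposited expression table. PHGDH, PSAT1 and PSPH form the serine synthesis pathway. SHMT2, MTHFD2 and MTHFD1L are mitochondrial folate enzymes, and SHMT1 and MTHFD1 work in the cytosol. Where a symbol had more than 1 entry, the entry with the highest mean level was taken, which applied to SHMT1 only. Its 2 entries averaged 1734 and 1106 normalised counts over all libraries. All 8 genes passed the filter on low values.

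Cells make serine from the glycolytic intermediate 3-phosphoglycerate. PHGDH catalyses the first and committed step, PSAT1 the transamination, and PSPH the final dephosphorylation. The SHMT enzymes then split serine into glycine and a one-carbon unit bound to tetrahydrofolate. In mitochondria MTHFD2 oxidises that unit and MTHFD1L releases it as formate, which leaves for the cytosol, where MTHFD1 loads it onto folate again for the synthesis of purines and thymidylate. Proliferating lymphoid cells draw heavily on this route for nucleotide synthesis.

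Z138 is a human mantle cell lymphoma cell line, labelled wild type and grown in RPMI-1640 with serum. Cells were kept for 8 h or 24 h in 0.5 µM AU-15330, a proteolysis-targeting chimera against SMARCA2, SMARCA4 and PBRM1, or in DMSO, with all groups from this 1 line. The groups held 3 libraries of AU-15330 at 8 h, 2 of DMSO at 8 h, 3 of AU-15330 at 24 h and 3 of DMSO at 24 h. For the further 8 h sample labelled DMSO replicate 3, the table has no separate column, since 2 identical columns carry the library name of replicate 2, and these were counted as 1 library. The labels do not state that replicates were separate cultures, so the spread behind each p-value is that between these samples and may be technical. Values are normalised counts obtained from the deposited log2-scale table, 59.4 of which equal 1 CPM (counts scaled to the library's total). Folds are on log2(normalised count + 60), each with its standard error (SE). Each adjusted p is from a limma fit, adjusted by Benjamini and Hochberg's method over the 12721 genes tested. A gene was called when its adjusted p was under 0.05.

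Estimated total counts were 50741217 to 67578992 per library, and libraries of the same group correlated with a Pearson's r of 0.9965 or more over genes, which are not independent replicates. All 7 B cell and mantle cell lymphoma markers were detected at 1 CPM or more in at least 3 libraries, summing to 3120 to 3530 CPM in AU-15330 and 3620 to 4090 CPM in DMSO libraries. Of the T cell list, 4 of 5 markers were in the table and 1 passed the filter, and the list summed to 1.74 to 5.78 CPM in AU-15330 and 12.9 to 13.7 CPM in DMSO libraries, with CD3G at 1.33 to 12.5 CPM. No myeloid, erythroid or megakaryocyte marker passed the filter, and no listed marker in the table was at 0 in every library. The part of these marker levels in the results was not tested. Among the genes of the degraded proteins, SMARCA2 had log2 changes of -0.48 ± 0.0786 (8 h) and -0.87 ± 0.0703 (24 h; limma adjusted p = 0.000261 and 1.1e-06). SMARCA4 changed by -0.16 and -0.28. PBRM1 had 0.00 at 8 h, not past the test, and -0.16 at 24 h, which passed. Protein levels were not measured.

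SHMT2 RNA was lower under AU-15330 at both times and MTHFD2 RNA higher, although both enzymes act in the same mitochondrial branch. PHGDH and PSPH were lower at both times, with the PSPH call lost in 2 of 22 alternative fits at 8 h and 6 of 22 at 24 h. PSAT1 was slightly higher at 24 h, a call lost in 8 of 22 alternative fits. MTHFD1L was lower, at 24 h with overlapping libraries and a call lost in 11 of 22 alternative fits. MTHFD1 was slightly higher at 8 h, a call lost in 2 of 22 alternative fits, and lower at 24 h. At 8 h, 6 of 8 were called, 2 of them higher and 4 lower, where 44.2% of all tested genes passed the test. At 24 h, 7 of 8 passed, 2 higher and 5 lower, against 50.9% of all tested genes. The median log2 change of the 8 genes was -0.24 at 8 h and -0.15 at 24 h, beside 0.0198 and 0.0088 over all genes tested. Libraries of the 2 treatments did not overlap for 6 of 8 genes at each time, which held for 62.5% of all tested genes at 8 h and 59.0% at 24 h. The counts of called and non-overlapping genes are thus above the background shares by a small number of genes, and the description below rests on the single genes. With 1 library left out, the count called at 24 h fell as low as 4 of 8. That is not above the 50.9% of all tested genes called with every library kept. Calls over all genes at 24 h also fell in such fits, from 6476 to as few as 5754. The 8 genes rank from 128 (SHMT2) to 6148 (SHMT1) of the 12721 tested by normalised count, and the background shares were not matched for level.

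**Figure D1:**
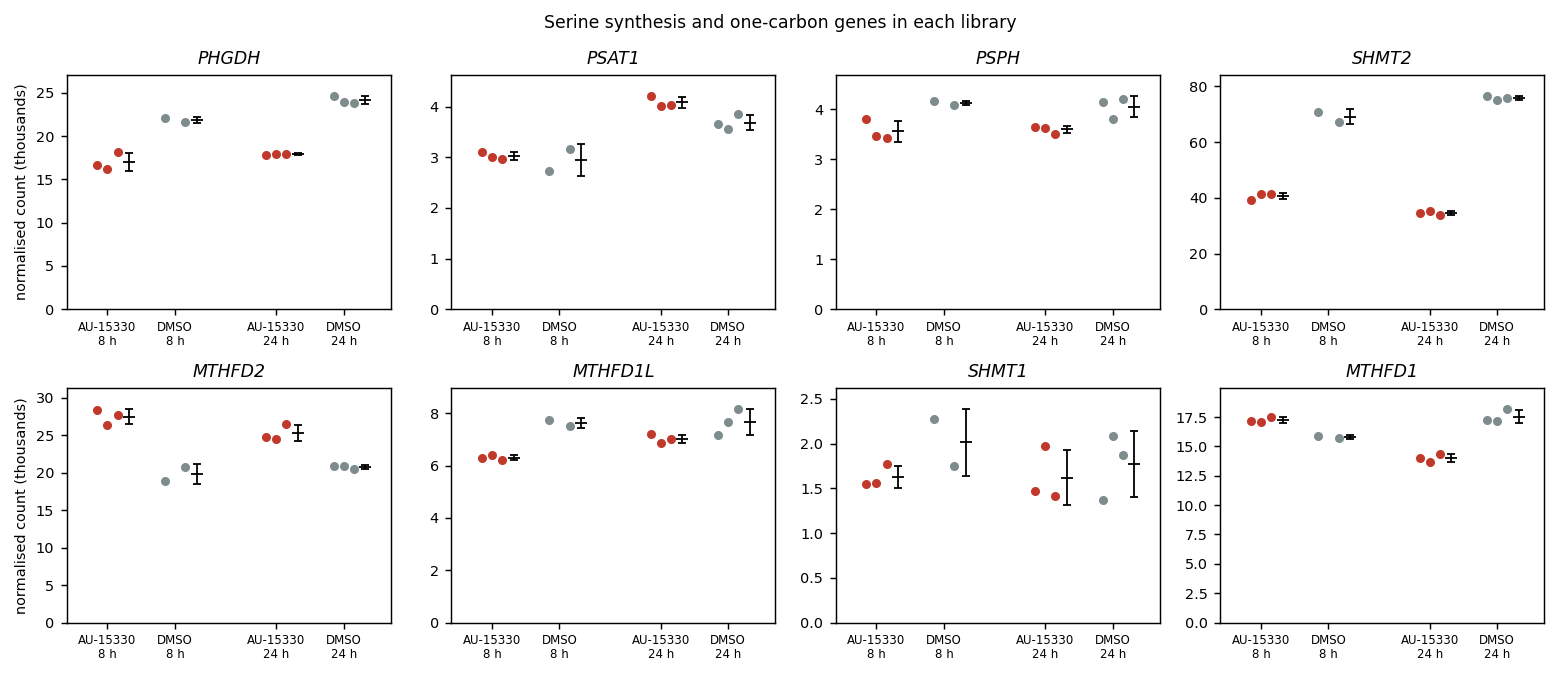
Normalised counts divided by 1000 (vertical axis, from 0) of the 8 genes in each of the 11 libraries, by treatment and time. Points are libraries, red for AU-15330 and grey for DMSO, and bars are the mean ± SD of a group. The SHMT2 points of AU-15330 lie between 33993 and 41456, all below the DMSO points between 67160 and 76572.

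Stretches of DNA before the transcription start sites are shown for genes that were higher, lower or turned direction, because published work places CCAAT boxes, E-boxes and ATF4 elements in promoters of nutrient-responsive and growth-related genes. They are RefSeq sequence of build GRCh38.p14, which matched 6 of the 8 genes by symbol. PSPH and SHMT2 were not matched. The starts used are those of RefSeq, and the sites printed for PHGDH, MTHFD1L and MTHFD1 lie inside the GENCODE gene spans given below. Motifs were searched on both strands in the 250 bases before each start, and no motif match overlapped another in the sequences printed. The CCAAT box was searched by the letters of its name, the E-box as CACGTG, the ATF4 element as TGATGNAA and the antioxidant response element as TGACNNNGC. Capitals mark the motif, and each sequence reads 5′ to 3′ on the gene's strand, which is the plus strand in every case printed.
MTHFD2, higher at both times, chr2:74198365-74198561: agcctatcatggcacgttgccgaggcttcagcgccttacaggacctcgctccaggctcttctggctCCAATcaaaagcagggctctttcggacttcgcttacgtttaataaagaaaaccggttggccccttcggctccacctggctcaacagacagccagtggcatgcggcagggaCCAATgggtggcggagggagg
PSAT1, higher at 24 h, chr9:78296875-78297124: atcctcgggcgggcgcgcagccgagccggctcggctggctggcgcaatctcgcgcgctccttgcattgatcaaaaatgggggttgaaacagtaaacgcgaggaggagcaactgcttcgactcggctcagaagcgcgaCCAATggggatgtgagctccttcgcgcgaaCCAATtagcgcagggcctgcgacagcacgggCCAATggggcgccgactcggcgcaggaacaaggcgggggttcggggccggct
PHGDH, lower at both times, chr1:119711852-119711881: agtatttccgtCCAATcaaaaggagactgt
MTHFD1L CCAAT box, chr6:150866282-150866311: cgtgggcatctCCAATgggcgcctagcggc
MTHFD1L E-box, chr6:150866321-150866350: acgcccggctcCACGTGcgcagccggccgc
MTHFD1L ATF4 element, chr6:150866346-150866375: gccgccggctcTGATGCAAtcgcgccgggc
MTHFD1 CCAAT box, chr14:64388126-64388155: ctttctttccgCCAATcatttccgccagcc
MTHFD1 E-box, chr14:64388327-64388352: cagtccctaagCACGTGggttgggtt

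A CCAAT box was found in 6 of these 6 genes and in 32.0% of 35116 regions of the same length. The MTHFD2 stretch has 2 of them and the PSAT1 stretch has 3. MTHFD1L and MTHFD1 hold an E-box, as 6.34% of all regions do. MTHFD1L alone of the 6 holds an ATF4 element, which 3.14% of regions hold, and none holds the antioxidant response element (10.9% of regions). RefSeq gives MTHFD1L 4 regions and the other matched genes 1 each, so MTHFD1L had more chances of a match, and its share is not comparable with that of single regions. A match describes letters in a window and does not show that a factor bound there.

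PHGDH, the first enzyme of serine synthesis (GRCh38 chromosome 1, 119648411 to 119744226, plus strand), was lower at both times. It had 16701, 16180 and 18122 normalised counts in the AU-15330 libraries at 8 h, against 22072 and 21599 in the DMSO libraries. The 24 h libraries had 17766, 17975 and 17917 in AU-15330, against 24644, 23956 and 23793 in DMSO. Every AU-15330 library was below every DMSO library of its time. The log2 change was -0.36 ± 0.0436 at 8 h (limma adjusted p = 5.48e-05) and -0.43 ± 0.039 at 24 h (limma adjusted p = 3.44e-06), so that 0.778 and 0.742 of the DMSO level were left. The difference between the changes was -0.07 ± 0.0586 and did not pass the test (limma adjusted p = 0.437).

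PSAT1, the transaminase that follows PHGDH (chromosome 9, 78297143 to 78330093, plus strand), did not share that decrease. It had 3105, 3000 and 2960 normalised counts in AU-15330 at 8 h, against 2729 and 3165 in DMSO, and these libraries overlap. In AU-15330 at 24 h it had 4211, 4013 and 4022, against 3648, 3558 and 3844 in DMSO, and all AU-15330 libraries were above the DMSO libraries. Its log2 difference was 0.04 ± 0.0629 at 8 h, not past the test (limma adjusted p = 0.668), and 0.15 ± 0.0563 at 24 h (limma adjusted p = 0.04). The 24 h call was lost when any 1 of AU-15330 replicates 1, 2 and 3 at 24 h, DMSO replicates 1 and 2 at 24 h or AU-15330 replicate 2 at 8 h was left out, with limma adjusted p-values of 0.122, 0.0633, 0.0588, 0.0967, 0.129 and 0.0505 in that order. It was also lost with no filter and with a replicate block (limma adjusted p = 0.0565 and 0.0817). PSAT1 was also higher at 24 h than at 8 h within each treatment, by 0.43 ± 0.0563 in AU-15330 (limma adjusted p = 0.000137) and by 0.32 ± 0.0629 in DMSO (limma adjusted p = 0.00904, and 0.0848 without DMSO replicate 1 at 8 h). The labels give each time a batch of its own, so time and batch cannot be told apart in any comparison of 24 h with 8 h.

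PSPH, the phosphatase that ends the pathway (chromosome 7, 56011051 to 56051604, minus strand), was lower by a small amount. It had 3809, 3472 and 3423 normalised counts in AU-15330 at 8 h, against 4161 and 4096 in DMSO. Counts at 24 h were 3648, 3637 and 3513 in AU-15330, against 4148, 3811 and 4212 in DMSO. Every AU-15330 library was below every DMSO library of its time. The log2 change was -0.21 ± 0.0583 at 8 h (limma adjusted p = 0.013) and -0.17 ± 0.0521 at 24 h (limma adjusted p = 0.0181). The 8 h call was lost without DMSO replicate 1 at 8 h (limma adjusted p = 0.0714). The 24 h call was lost without AU-15330 replicate 3, DMSO replicate 1 or DMSO replicate 3 of that time (0.0557, 0.0619 and 0.0721), under quantile normalisation (0.117) and on log2(CPM + 1) and log2(CPM + 5) (0.0867 and 0.086). Its pseudogene PSPHP1 had 129.8 to 187.0 normalised counts.

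SHMT2, the mitochondrial enzyme that splits serine (chromosome 12, 57229327 to 57234935, plus strand), had the largest change of the 8 genes at both times. It had 39269, 41456 and 41190 normalised counts in AU-15330 at 8 h, against 70960 and 67160 in DMSO. At 24 h it had 34538, 35094 and 33993 in AU-15330, against 76572, 74953 and 75779 in DMSO. The groups lay far apart, with a group SD of 551 to 2690 normalised counts. On the log2 scale it changed by -0.76 ± 0.0346 at 8 h (limma adjusted p = 3.28e-08) and -1.13 ± 0.0309 at 24 h (limma adjusted p = 3.25e-10), which leaves 0.589 and 0.456 of the DMSO level. The decrease was larger at 24 h, by -0.37 ± 0.0464 (limma adjusted p = 0.00048). AU-15330 at 24 h was lower than at 8 h by -0.23 ± 0.0309 (limma adjusted p = 0.000175). DMSO at 24 h was higher than at 8 h by 0.13 ± 0.0346 (limma adjusted p = 0.0303), a call lost in 8 of 21 alternatives, among them quantile normalisation (0.0989) and leaving out DMSO replicate 2 at 8 h (0.205) or DMSO replicate 1, 2 or 3 at 24 h (0.0922, 0.0604 and 0.0779). The exons of SHMT2 overlap those of NDUFA4L2 on the other strand, which averaged 174.5 normalised counts.

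MTHFD2, the dehydrogenase and cyclohydrolase that follows SHMT2 in mitochondria (chromosome 2, 74198562 to 74217565, plus strand), went the other way. It had 28334, 26358 and 27738 normalised counts in AU-15330 at 8 h, against 18878 and 20797 in DMSO. The 24 h libraries had 24813, 24569 and 26476 in AU-15330, against 20965, 20856 and 20530 in DMSO. Every AU-15330 library was above every DMSO library at both times. The log2 change was 0.47 ± 0.0487 at 8 h (limma adjusted p = 1.8e-05) and 0.28 ± 0.0435 at 24 h (limma adjusted p = 0.000257), or 1.38 and 1.22 times the DMSO level. The difference between the changes was -0.19 ± 0.0653 and did not pass the test (limma adjusted p = 0.0689), but it passed without AU-15330 replicate 2 at 8 h, DMSO replicate 2 at 8 h or AU-15330 replicate 3 at 24 h (0.0455, 0.0311 and 0.035). Its pseudogenes MTHFD2P1 and MTHFD2P7 stayed at or under 23.4 and 4.1 normalised counts.

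MTHFD1L, which releases mitochondrial formate (chromosome 6, 150865549 to 151101887, plus strand), was lower at 8 h. It had 6305, 6399 and 6218 normalised counts in AU-15330 at 8 h, against 7765 and 7503 in DMSO, with no overlap. In AU-15330 at 24 h it had 7197, 6886 and 7005, against 7186, 7690 and 8157 in DMSO, where AU-15330 replicate 1 was above DMSO replicate 1. On the log2 scale it changed by -0.27 ± 0.0503 at 8 h (limma adjusted p = 0.00118) and -0.12 ± 0.045 at 24 h (limma adjusted p = 0.0375). The 24 h call was lost in 11 of 22 alternatives, among them centring of library medians (limma adjusted p = 0.074) and leaving out AU-15330 replicate 2, AU-15330 replicate 3, DMSO replicate 2 or DMSO replicate 3 of that time (0.114, 0.0767, 0.0846 and 0.158). The difference between the changes, 0.15 ± 0.0674, did not pass the test (limma adjusted p = 0.164), but passed under quantile normalisation (0.0359).

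**Figure D2:**
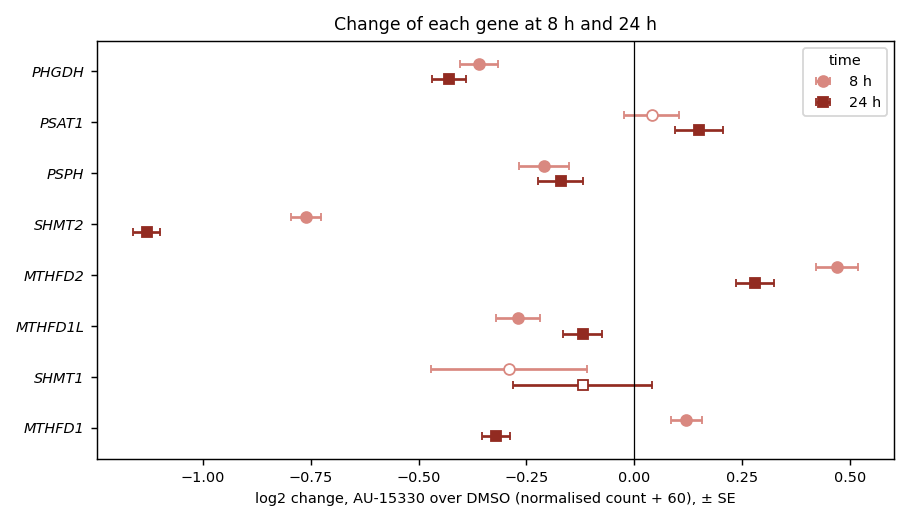
Log2 change of AU-15330 over DMSO for each gene at 8 h (circles) and 24 h (squares), on log2(normalised count + 60), with bars of 1 SE. Filled symbols passed the test and open symbols did not. SHMT2 lies furthest to the left at -0.76 and -1.13, MTHFD2 lies to the right at 0.47 and 0.28, and MTHFD1 lies at 0.12 and -0.32.

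MTHFD1, the cytosolic enzyme that attaches formate to folate (chromosome 14, 64388031 to 64463457, plus strand), was called in opposite directions at the 2 times. It had 17141, 17049 and 17533 normalised counts in AU-15330 at 8 h, against 15916 and 15710 in DMSO. Counts at 24 h were 14045, 13702 and 14352 in AU-15330, against 17246, 17170 and 18172 in DMSO. The AU-15330 libraries were all above DMSO at 8 h and all below it at 24 h. The log2 change was 0.12 ± 0.0358 at 8 h (limma adjusted p = 0.0157) and -0.32 ± 0.032 at 24 h (limma adjusted p = 9.21e-06), and the changes differed by -0.44 ± 0.048 (limma adjusted p = 0.000183). The 8 h call was lost without DMSO replicate 2 at 8 h (limma adjusted p = 0.0787), while the difference passed in every alternative run. Exons of MTHFD1 overlap ZBTB25 on the other strand, which averaged 872.8 normalised counts, and the sources used here do not say whether reads were counted by strand.

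SHMT1, the cytosolic counterpart of SHMT2 (chromosome 17, 18327860 to 18363563, minus strand), has 2 entries in the table, and the entry with the higher mean is not on the primary assembly. That entry averaged 1625 ± 122 normalised counts in AU-15330 and 2013 ± 370 in DMSO at 8 h (SD, n = 3 and 2), and 1618 ± 308 in AU-15330 and 1772 ± 368 in DMSO at 24 h (SD, n = 3 each). Its libraries overlap at both times. Its log2 change was -0.29 ± 0.181 at 8 h and -0.12 ± 0.162 at 24 h, neither past the test (limma adjusted p = 0.207 and 0.556). The entry on the primary assembly gave -0.31 ± 0.154 and -0.34 ± 0.138, also not past the test (0.132 and 0.0577).

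Summed over both entries, SHMT1 was less variable between libraries. The coefficient of variation within groups was 4.05% to 9.66% for the sum and 7.53% to 20.7% for the chosen entry alone, and the chosen entry took 47.5% to 68.7% of the sum. The sum averaged 2610 ± 186 normalised counts in AU-15330 and 3256 ± 132 in DMSO at 8 h, and 2592 ± 250 in AU-15330 and 3039 ± 147 in DMSO at 24 h. Its log2 change was -0.31 ± 0.0823 at 8 h and -0.23 ± 0.0736 at 24 h, and both passed the test (limma adjusted p = 0.00844 and 0.0226). The estimates for single entries are uncertain because reads can be split between near-identical copies. SMCR8, whose exons overlap SHMT1 on the other strand, averaged 1300.7 normalised counts.

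**Figure D3:**
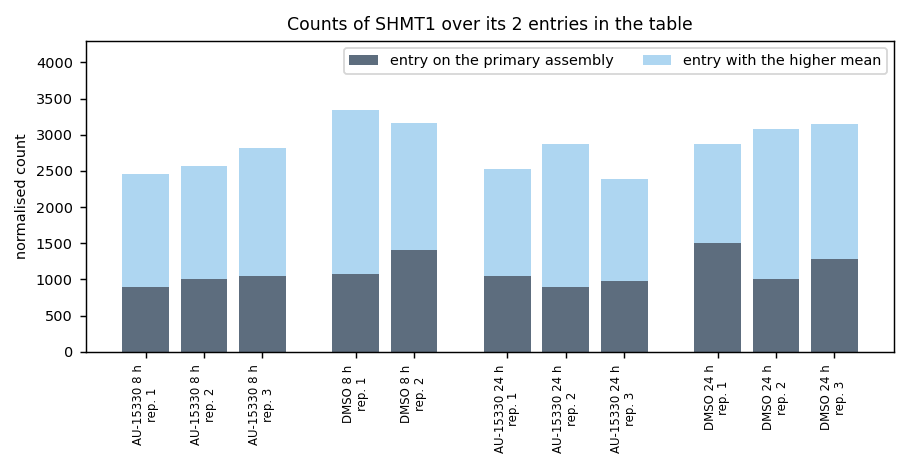
Normalised counts of the 2 SHMT1 entries (vertical axis, from 0) in each library, stacked, with the entry on the primary assembly in dark and the entry with the higher mean in light blue. The split between the entries varies between libraries of a group, whereas the whole bars of AU-15330 at 8 h (2452 to 2815) lie below those of DMSO at 8 h (3162 to 3349).

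Set per kilobase of merged exons, SHMT2 was the highest and SHMT1 the lowest of the 8 genes in all groups, at 8400 and 223.2 normalised counts per kilobase in AU-15330 at 8 h and 14270 and 276.5 in DMSO at 8 h. MTHFD2 came next in every group. At 24 h it stood at 5192 ± 213 per kilobase in AU-15330, against 4268 ± 46.5 in DMSO (SD, n = 3 each), while SHMT2 stood at 7140 ± 114 in AU-15330, against 15660 ± 167 in DMSO. In 4 pairs of neighbours in the order the gap was no larger than the larger SD. They are PHGDH and MTHFD1 in AU-15330 at 8 h (1845 ± 109 and 1839 ± 27.4), PSPH and MTHFD1L in AU-15330 at 8 h (1292 ± 76.1 and 1256 ± 18.0), MTHFD1L and PSPH in DMSO at 8 h (1520 ± 37.0 and 1495 ± 16.7), and the same pair in DMSO at 24 h (1529 ± 96.7 and 1469 ± 77.9). With the length of the longest transcript in place of merged exons, PHGDH was below MTHFD2 in AU-15330 at 8 h, at 5346 and 6166 per kilobase, and above it in DMSO at 8 h, at 6867 and 4452. By that length the genes were close in AU-15330 at 24 h, at 5625 and 5675, where the MTHFD2 libraries had a coefficient of variation of 4.1%, and PHGDH was above MTHFD2 in DMSO at 24 h, at 7588 and 4664.

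The balance between consecutive enzymes was set out in ratios within each library, chosen after the values were seen. MTHFD2 over SHMT2 was 0.722, 0.636 and 0.673 in AU-15330 at 8 h, against 0.266 and 0.31 in DMSO. At 24 h it was 0.718, 0.7 and 0.779 in AU-15330, against 0.274, 0.278 and 0.271 in DMSO. The ratio was thus 2.35 and 2.67 times as high in AU-15330, with no overlap. PSAT1 over PHGDH was 0.178 ± 0.0129 in AU-15330 and 0.135 ± 0.0162 in DMSO at 8 h, and 0.228 ± 0.00762 in AU-15330 and 0.153 ± 0.00768 in DMSO at 24 h. SHMT2 over summed SHMT1 was 15.6 ± 0.846 in AU-15330 and 21.2 ± 0.0335 in DMSO at 8 h, and 13.4 ± 1.05 in AU-15330 and 25.0 ± 1.44 in DMSO at 24 h. These follow from the changes given above and are no separate evidence. For each ratio the exact two-sided permutation p was 0.2 at 8 h and 0.1 at 24 h, the smallest that 3 against 2 and 3 against 3 libraries allow.

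The 8 genes together gave 1955, 1934 and 1994 CPM in AU-15330 at 8 h, against 2428 and 2407 CPM in DMSO. At 24 h they gave 1862, 1844 and 1853 CPM in AU-15330, against 2563, 2552 and 2584 CPM in DMSO. The sum was lower in every AU-15330 library, and SHMT2 is its largest term. In bulk RNA, less RNA per cell and fewer cells of a state cannot be told apart.

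**Figure D4:**
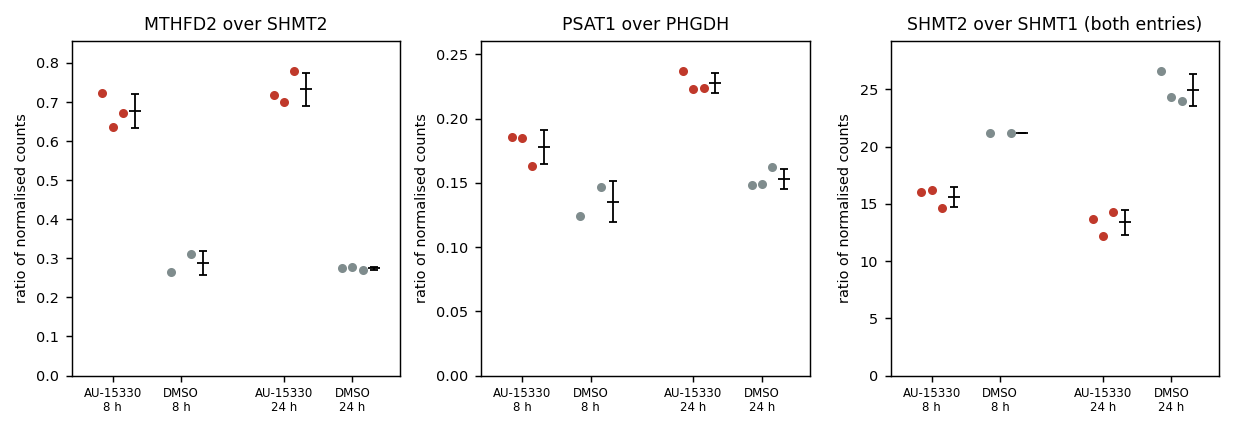
Ratios of normalised counts within each library (vertical axes, from 0) for MTHFD2 over SHMT2, PSAT1 over PHGDH and SHMT2 over SHMT1 summed over both entries. Points are libraries, red for AU-15330 and grey for DMSO, and bars are the mean ± SD. MTHFD2 over SHMT2 lies between 0.636 and 0.779 in AU-15330 and between 0.266 and 0.31 in DMSO.

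Between the times, 2 of the 8 genes differed in their response, SHMT2 and MTHFD1, both more negative at 24 h, where 18.5% of all tested genes differed. Of all tested genes 11.0% were more negative and 7.54% more positive, a balance that turned with the scaling, from 59.3% of these calls negative to 41.1% on log2(CPM + 1), 40.7% on log2(CPM + 5) and 48.4% under quantile normalisation. Within AU-15330, 5 of 8 genes differed between 24 h and 8 h, where 39.4% of all genes did, 18.3% higher and 21.1% lower at 24 h. The lower calls were 53.6% of these, but 46.1% on log2(CPM + 1). PSAT1 and MTHFD1L (0.15 ± 0.045, limma adjusted p = 0.0199) were higher at 24 h. SHMT2, MTHFD1 (-0.30 ± 0.032, limma adjusted p = 4.39e-05) and MTHFD2 (-0.12 ± 0.0435, limma adjusted p = 0.0467) were lower. For MTHFD2 the libraries overlap, and the call was lost in 13 of 21 alternatives, with limma adjusted p-values up to 0.327, under quantile normalisation, where the deposited-scale difference was -0.0568 in place of -0.11. Without AU-15330 replicate 1 at 24 h, 3 of the 8 genes passed, and MTHFD1L and MTHFD2 did not (limma adjusted p = 0.0672 and 0.128). The MTHFD1L call was also lost without AU-15330 replicate 3 at 8 h (0.0615). Within DMSO, 3 of 8 genes differed, PSAT1, SHMT2 and MTHFD1 (0.15 ± 0.0358, limma adjusted p = 0.0254), all higher at 24 h, against 10.1% of all genes, 6.56% higher and 3.56% lower. The lower calls were 35.2% of these, but 49.8% on log2(CPM + 1), 49.3% on log2(CPM + 5) and 47.4% under quantile normalisation. The DMSO call of MTHFD1 was lost in 7 of 21 alternatives and that of SHMT2 in 8 of 21. The count of 3 genes was 1 when either DMSO replicate 1 or 2 at 8 h, or DMSO replicate 3 at 24 h, was left out. The libraries of the 2 times did not overlap for 4 of 8 genes within AU-15330 and for 4 of 8 within DMSO, beside 49.5% and 42.4% of all tested genes.

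Genes with the most similar course to each gene called at both times were named by the root-mean-square difference over the 11 libraries, on log2(normalised count + 60) centred on each gene's mean. For SHMT2 these were RAB37 (0.0532), PKIG (0.0546) and SEPTIN9 (0.0601). For PHGDH they were ESYT1 (0.0508), CXADR (0.0522) and TYMS (0.0527), of which TYMS is thymidylate synthase, itself a folate enzyme. MTHFD2 was nearest to NFYC (0.0459), a subunit of the CCAAT-binding factor NF-Y, EIF4E (0.0476), the cap-binding translation factor, and KDM4C (0.0493). MTHFD1 was nearest to P2RY8 (0.0411), POLA1 (0.0453) and PSMA6 (0.049). MTHFD1L was nearest to CEP120 (0.0397), ETHE1 (0.0466) and XK (0.0483), and PSPH to RBM18 (0.0459), LDHAP4 (0.0477) and EEF1A1P9 (0.0486). The likeness describes these libraries.

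Other steps of folate metabolism moved in both directions. Of 9 tested enzymes that interconvert folates, 3 were higher, 1 lower and 5 not called at 8 h, and 3, 2 and 4 at 24 h. Of all tested genes 22.9% were higher and 21.4% lower at 8 h, and 24.7% and 26.2% at 24 h. These shares are also those to set beside the counts of every list below. TYMS, which makes thymidylate, changed by -0.40 ± 0.0292 and -0.38 ± 0.0261 (limma adjusted p = 1.39e-06 and 3.96e-07). GGH, the hydrolase of folate polyglutamates, rose by 0.33 and 0.31. Of 3 folate carriers, none was called at 8 h and 2 were lower at 24 h, SLC19A1, the reduced folate carrier of the plasma membrane (-0.35 ± 0.0782), and SLC25A32, the mitochondrial folate carrier (-0.38 ± 0.0425). SLC46A1, the proton-coupled carrier, had -0.31 and 0.05, neither past the test. SLC25A32 differed between the times by -0.47 ± 0.0637 (limma adjusted p = 0.000646).

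The 3 tested genes of the list of glycine cleavage and mitochondrial glycine oxidation were lower at both times, but only GCSH among them is specific to glycine cleavage. GCSH, the lipoyl carrier protein of the glycine cleavage system, changed by -0.72 ± 0.0938 and -0.78 ± 0.0839. SARDH, sarcosine dehydrogenase, whose substrate is sarcosine and not glycine, changed by -0.65 ± 0.105 and -0.74 ± 0.0936. DLD, a dehydrogenase shared with other complexes, changed by -0.17 and -0.34. GCSH has a pseudogene entry, GCSHP5, that changed alike (-0.73 and -0.87), so its level is uncertain. Of the 6 listed genes, the other 3, GLDC, AMT and DMGDH, did not pass the filter on low values. The list thus does not show a fall of glycine cleavage as a whole.

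Transsulfuration and glutathione genes had 4 of 5 tested genes higher at 8 h and 3 of 5 at 24 h, with none lower. Of all tested genes 22.9% were higher at 8 h and 24.7% at 24 h. CBS, which joins serine and homocysteine, had 349.3 and 611.3 normalised counts in AU-15330 at 8 h and 24 h, against 85.02 and 150.7 in DMSO. The change was 1.5 ± 0.171 and 1.70 ± 0.153, and its near-identical copy CBSL changed by 1.38 ± 0.0822 and 2.19 ± 0.0735, so reads of the pair cannot be assigned with certainty. GSS, glutathione synthetase, rose by 0.63 ± 0.075 and 0.98 ± 0.0671, and CTH, cystathionine gamma-lyase, had 0.39 at 8 h, not past the test, and rose by 0.89 at 24 h. GCLM, the modifier subunit of glutamate-cysteine ligase, rose by 0.31 at 8 h, while its 0.13 at 24 h did not pass.

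Serine carriers and the enzymes that break serine down had 1 gene higher, 2 lower and 5 not called at 8 h, and 1, 3 and 4 at 24 h. SLC1A5 and SLC1A4, neutral amino acid exchangers, changed by -0.45 ± 0.0413 and -0.50 ± 0.0979 at 8 h and by -0.48 ± 0.037 and -0.63 ± 0.0875 at 24 h. SRR, serine racemase, rose by 0.38 at 8 h while its 0.10 at 24 h did not pass. The gene counted as higher at 24 h is SDSL, a serine dehydratase-like gene, with 65.5 normalised counts in AU-15330, against 24.44 in DMSO. It passed the filter on low values only through the group in which it is high, so its call is given as a description. Of 6 enzymes of purine synthesis, a pathway that takes formyl groups from folate at the GART and ATIC steps, 2 were higher and 4 not called at 8 h, and 1 higher and 5 not called at 24 h. GART rose by 0.40 ± 0.038 and 0.29 ± 0.034, and PAICS by 0.13 at 8 h with -0.04 at 24 h, not past the test. PPAT had 0.22 and -0.17 and ATIC 0.01 and -0.10, none past the test.

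The list for the methionine cycle, which takes methyl groups from folate, had 2 genes higher, 2 lower and 4 not called at 8 h, and 0 higher, 3 lower and 5 not called at 24 h. MTR, methionine synthase, had 0.03 at 8 h, not past the test, and fell by 0.23 at 24 h. MTRR, its reductase, rose by 0.38 at 8 h and had -0.25 at 24 h, not past the test. MTAP, which salvages methylthioadenosine, fell by 0.26 and 0.53, and AHCY fell by 0.14 at 8 h. Also counted in the list are the AHCY-like genes AHCYL2, which rose by 0.51 at 8 h, and AHCYL1, which fell by 0.19 at 24 h. Whether these AHCY-like genes take part in the cycle was not tested. All these changes are on the log2 scale.

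ATF4, a transcription factor known to drive serine synthesis genes and MTHFD2, rose by 0.20 ± 0.0372 at 8 h (limma adjusted p = 0.00102) and had 0.04 ± 0.0333 at 24 h, not past the test (limma adjusted p = 0.339). MYC, also known to act on these genes, rose by 0.35 ± 0.0264 at 8 h and fell by 0.19 at 24 h, with a difference of -0.54 ± 0.0355 between the times. NFE2L2, a regulator of the antioxidant response, rose by 0.43 ± 0.0547 and 0.37 ± 0.0489. Of 17 tested genes of the amino acid response, 9 were higher and 6 lower at 8 h, and 8 higher and 4 lower at 24 h. Over all tested genes 22.9% were higher and 21.4% lower at 8 h, and 24.7% and 26.2% at 24 h. ASNS, asparagine synthetase, rose by 0.51 ± 0.0583 and 0.69 ± 0.0521, SLC3A2, the heavy chain of amino acid exchangers, by 0.53 ± 0.0395 and 0.73 ± 0.0353, and ATF5 by 0.22 and 0.65. TRIB3, a pseudokinase, changed by -0.86 ± 0.0912 and -0.64 ± 0.0816, and PCK2, mitochondrial PEP carboxykinase, by -0.71 ± 0.0654 and -0.68 ± 0.0585. GART, PCK2 and SESN2 have more than 1 entry in the table, so their values are uncertain.

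**Figure D5:**
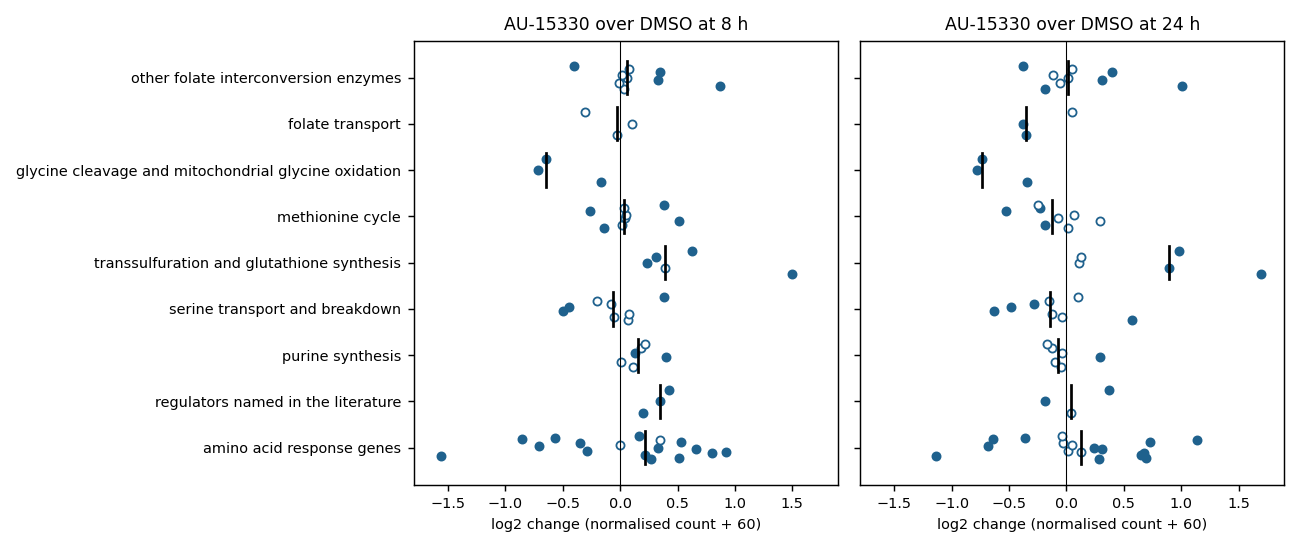
Log2 change of AU-15330 over DMSO at 8 h (left) and 24 h (right) for the tested genes of 9 related lists, on log2(normalised count + 60). Each circle is a gene, filled where it passed the test, and the vertical black bar is the list's median. The 3 tested genes of the glycine cleavage and oxidation list (GCSH, DLD and SARDH) lie left of 0 at both times, and the transsulfuration and glutathione genes lie right of it.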

How the data were processed

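RNA of Z138 cells was sequenced with 50 bp reads. Per the labels' protocols, libraries were either poly(A) or depleted of ribosomal RNA, not said by sample. The labels and the submitters' processing notes list kallisto 0.46.1, DESeq2 1.24.0, R 4.3.2, Trimmomatic 0.40, FastQC 0.11.9 and GRCh38.p13, with no parameters. The authors deposited log2-scale values for 20318 entries. Every library has the floor 10.36053, the form of a variance-stabilising transform, which was inverted to normalised counts. Of values up to 20 counts, 54.0% to 56.1% lay within 0.02 of a whole number, so no count model was used. A doubling on the deposited scale is 0.163 at 100, 0.461 at 1000 and 0.852 at 10000 normalised counts, so folds were fitted on log2(normalised count + 60), which understates folds of low genes. Of 12 value columns, 1 duplicate was not used.

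A filter kept 12721 entries (62.6%) that reached 1 CPM in 3 or more libraries. They were fitted with limma 3.58.1 (R 4.3.3), 1 mean per group, 7 residual degrees of freedom and a mean-dependent variance prior. The p-values are from the deposited log2 scale. The procedure was tested on simulated data. Tables and figures used NumPy 2.4.6, Matplotlib 3.10.9 and pandas 2.3.3 in Python 3.11.15. Coordinates and lengths are from GENCODE release 29. The members, the lists and the tests were chosen with earlier results of these data known. All 8 members are named, and in each other list the 3 genes with the smallest p at each time. Some genes of the folate list are not reported here. Alternatives were quantile normalisation, median centring, log2(CPM + 1), log2(CPM + 5), no filter, a filter at 5 CPM, each comparison's own groups, priors that were robust or without trend, a replicate block, leaving out each library, summed SHMT1 entries, the longest transcript as length, and, added after seeing the data, a test on log2(normalised count + 60).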

Additional observations from a re-analysis of the deposited data

Results flagged for a closer look

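The AU-15330 effect on SHMT2 differed between the times by -0.37 ± 0.0464 on the log2 scale in the test of the difference itself (limma adjusted p = 0.00048), with a log2 change of -1.13 at 24 h and -0.76 at 8 h. The effect on MTHFD1 differed by -0.44 ± 0.048 (limma adjusted p = 0.000183), with a log2 change of -0.32 at 24 h and 0.12 at 8 h. The labels give each time its own batch, so time and batch cannot be told apart in either difference.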

How the results depend on the processing

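The calls of SHMT2, PHGDH and MTHFD2 at both times, MTHFD1L at 8 h, MTHFD1 at 24 h and the differences of SHMT2 and MTHFD1 between the times held in all alternatives run. Of 861 single-gene results under alternatives, 769 kept direction and side of the threshold, 60 lost the call, 12 gained it and 20 changed sign, none of these 20 from a value that had passed the test. A filter, a variance prior or a library outside the groups compared leaves a difference as it is. Direction was fixed in advance in those settings, so the 769 is no measure of robustness. The cause of each change was not tested. A fit with a library left out also has fewer degrees of freedom. Values below are on the deposited scale.

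Without AU-15330 replicate 3 at 24 h, 4 of the 8 genes were called at 24 h, and leaving out each library gave 4 to 7 (5 to 6 at 8 h). Within AU-15330, 3 to 5 were called between the times, and within DMSO 1 to 4. That DMSO count was 1 under quantile normalisation, log2(CPM + 1), log2(CPM + 5) and a fit of its own groups, and the genes called there were 662 to 1364 with a library left out, of 1287. Over all genes, 6476 were called at 24 h in the main fit and as few as 5754 with a library left out. Within AU-15330 these numbers were 5009 and 4156. The 4 of 8 genes at 24 h are thus not above the 50.9% of all tested genes called in the main fit. The share of calls at 24 h that were lower was 51.4%, and 43.0%, 42.5% and 42.4% under quantile normalisation, log2(CPM + 1) and log2(CPM + 5).

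PHGDH's difference between the times became 0.0273 under quantile normalisation. For SHMT1, AU-15330 at 24 h against 8 h became 0.0113 and 0.0112 on log2(CPM + 1) and log2(CPM + 5). For MTHFD1L, DMSO at 24 h against 8 h became -0.0190, -0.0019, -0.0242 and -0.0235 under quantile normalisation, median centring, log2(CPM + 1) and log2(CPM + 5). With a library left out, PSAT1 at 8 h ranged from -0.0409 to 0.0872. The difference between the times ranged from -0.009 to 0.1888 for SHMT1 and from -0.0031 to 0.0567 for PSPH. AU-15330 at 24 h against 8 h ranged from -0.0098 to 0.0394 for PSPH and from -0.0816 to 0.0368 for SHMT1. DMSO at 24 h against 8 h ranged from -0.0009 to 0.1233 for MTHFD2, -0.1961 to 0.0017 for SHMT1, -0.0292 to 0.0412 for MTHFD1L and -0.0355 to 0.0118 for PSPH.

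Replicate numbers were not taken as pairs, since deviations of same-numbered libraries correlated at -0.025 and -0.035 at 8 h and at 0.041, 0.03 and 0.045 at 24 h, where each library correlated best with its own number. With the replicate block, 1359 genes in place of 2358 were called for the difference between the times, and PSPH (-0.1189) and MTHFD1 (0.0979) at 8 h and PSAT1 and MTHFD1L at 24 h were not called (limma adjusted p = 0.0703, 0.0643, 0.0817 and 0.0842), in a fit with 3 residual degrees of freedom. The chosen SHMT1 entry had the lowest counts, 1365 to 2275 normalised counts per library, and the other 7 genes had at least 2729.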

Other observations

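The genes given here were chosen after their values were seen and belong to the amino acid response list. CHAC1, a glutathione-degrading enzyme, rose by 0.92 at 8 h and had 0.13 at 24 h, not past the test, a difference of -0.79 between the times (limma adjusted p = 0.0106). SLC7A11, the cystine carrier, had 0.35 at 8 h, not past the test, and rose by 1.14 at 24 h, a difference of 0.79 (limma adjusted p = 0.0156). ATF3, a stress-induced transcription factor, changed by -1.56 and -1.14, and CEBPB rose by 0.80 and 0.68.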
